A study of Homo sapiens with 4 samples.

Results

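The Frizzled receptors were examined in BE(2)C cells, a human neuroblastoma line with amplified MYCN, after knockdown of MYCN. All 10 human family members, FZD1 to FZD10, were found by gene symbol among the 26364 genes listed in each sample. The family was selected on the measured rise of FZD5 between the 2 conditions, so the differences of its members between conditions are given as descriptions without a test. RNA was sequenced from 2 samples transfected with a non-targeting siRNA (Ctrl) and 2 transfected with an siRNA against MYCN (MYCN KD), with 80 nM siRNA per the labels, and RNA was taken on the next day. The study's methods state another final concentration. A single siRNA stands for each condition, and all samples come from the same line and the same lipid transfection, so an effect of lower MYCN and an effect particular to that siRNA cannot be told apart. The labels number the replicates and do not say that they came from separate cultures, so p-values measure the spread between these samples.

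Frizzled proteins are receptors with a membrane core of the G protein-coupled type and an outer cysteine-rich domain that binds Wnt ligands. With LRP5 or LRP6 beside them they recruit Dishevelled inside the cell, which protects beta-catenin from degradation, and without these partners they can signal to the cytoskeleton through the planar cell polarity pathway. The neural crest, from which neuroblastoma arises, depends on Wnt signals for its induction and for the migration of its cells.

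Values were RPKM, reads scaled to the length of the gene in kilobases and to the size of the library. Comparisons between genes depend on the length used. Whole counts were recovered from the steps of the RPKM values. Since the authors computed RPKM after RUVSeq, these are normalized counts and not sequenced reads, and Poisson intervals on them only approximate counting error. Their total lay from 29055819 (MYCN KD replicate 1) to 34142988 (Ctrl replicate 1). MYCN itself went from 1068 and 1073 RPKM in the Ctrl samples to 720.2 and 718.0 RPKM in the MYCN KD samples, a log2 difference of -0.57 (standard error 0.029, adjusted p = 0.00361 from limma on log2(RPKM + 1)). Adrenergic neuroblastoma markers were present, with all 13 of 13 at a mean of 1 RPKM or more, and their summed RPKM was 4107 and 3816 for Ctrl against 5385 and 5782 for MYCN KD. Of 12 markers of blood, endothelial and epithelial cells, 0 reached a mean RPKM of 1, HBB and KRT5 were at 0 throughout, and the sum was 0.497 and 0.610 RPKM for Ctrl against 1.13 and 0.940 RPKM for MYCN KD. Of 12 mesenchymal markers, 6 reached it, with PRRX1 and TWIST2 at 0 throughout, and their sum was 431.3 and 432.1 RPKM for Ctrl against 540.3 and 539.2 RPKM for MYCN KD. VIM (154.0 and 159.4 against 235.0 and 227.2 RPKM) and THY1 (216.0 and 207.8 against 245.5 and 255.0 RPKM) made up most of that sum, while TWIST1 (45.8 and 49.5 against 42.1 and 39.1 RPKM) and SNAI2 (3.76 and 3.78 against 3.41 and 3.40 RPKM) were lower in both MYCN KD samples. The part of these shifts in the results on Frizzled receptors was not tested.

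The family showed a graded order of levels in Ctrl. FZD2, a receptor for canonical and planar polarity signals, had the highest mean RPKM at 3.33 ± 0.121 (SD, n = 2). FZD6, often a receptor of planar polarity, followed at 3.27 ± 0.407 and FZD3, which guides axon growth, at 3.03 ± 0.423. The Ctrl values of FZD2 overlapped those of FZD6, and those of FZD6 overlapped those of FZD3, so the order among these 3 receptors was not resolved. It also rests on the length used, 13787 bases for FZD3 and 3819 for FZD2. Recovered counts in Ctrl were 1286 and 1468 for FZD3 against 423 and 417 for FZD2. FZD7, a canonical receptor of stem and progenitor cells, came next at 2.40 ± 0.194 RPKM, below both values of FZD3. FZD5, at 1.42 ± 0.0188 RPKM, was in the fifth place. FZD1 (0.814 ± 0.144 RPKM), FZD9 (0.543 ± 0.0434) and FZD4 (0.0818 ± 0.00200) lay under it, each apart from its neighbours, and FZD8 (0.0285 RPKM) and FZD10 (0 RPKM) ended the order. In MYCN KD FZD5 stood above all other receptors, at rank 1, and FZD6 came next, above the values of FZD2, FZD3 and FZD7.

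**Figure D1:**
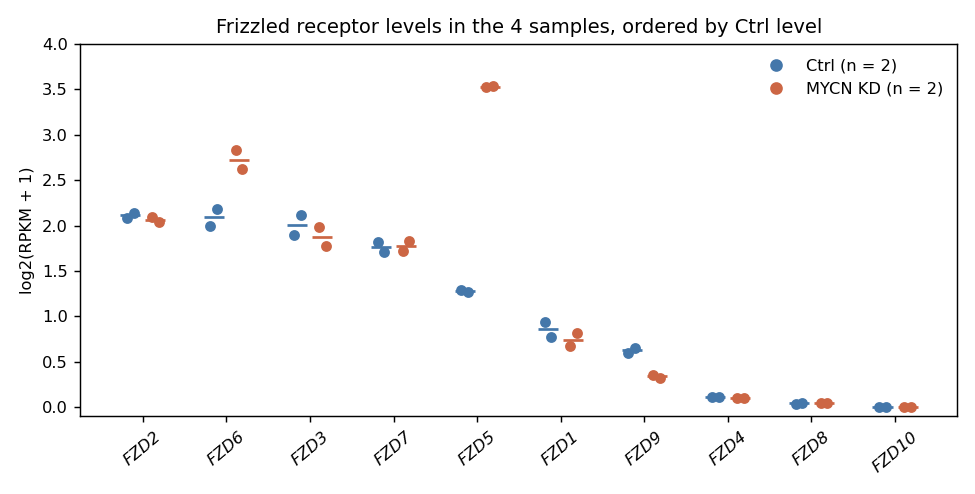
Levels of the 10 Frizzled receptors as log2(RPKM + 1) on the vertical axis, with receptors ordered from left to right by their Ctrl mean. Each point is 1 sample and each bar the mean of 2 samples; FZD5 stands at 1.42 RPKM in Ctrl and 10.6 RPKM in MYCN KD, while the points of FZD2, FZD3 and FZD7 overlap between conditions.

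FZD5 lies on the minus strand of chromosome 2 of GRCh37 (hg19), from 208627322 to 208634630, with 2 exons in its canonical transcript. The bases just before its start are shown here because FZD5 is the receptor with the largest difference. FZD9, on the plus strand of chromosome 7 from 72848108 to 72850450 with 1 exon, is shown beside it as a receptor with lower values in MYCN KD. Each line gives the 250 bases before the RefSeq start of the gene, 5′ to 3′ on the gene's strand, placed by exact match on GRCh37. Capitals mark matches on either strand to the letters CANNTG, the E-box of any kind, and CCAAT.
FZD5, chr2:208634631-208634880, minus strand: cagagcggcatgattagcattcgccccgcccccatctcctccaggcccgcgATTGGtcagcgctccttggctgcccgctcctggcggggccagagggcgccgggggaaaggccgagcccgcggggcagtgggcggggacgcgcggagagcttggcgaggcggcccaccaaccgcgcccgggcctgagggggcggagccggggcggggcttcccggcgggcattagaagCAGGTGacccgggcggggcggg
FZD9, chr7:72847858-72848107, plus strand: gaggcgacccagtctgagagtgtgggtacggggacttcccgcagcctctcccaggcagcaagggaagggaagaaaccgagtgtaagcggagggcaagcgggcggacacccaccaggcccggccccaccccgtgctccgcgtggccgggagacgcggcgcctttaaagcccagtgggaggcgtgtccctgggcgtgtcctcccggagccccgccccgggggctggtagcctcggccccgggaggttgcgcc

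RefSeq sequences (GRCh38.p14 table) were matched for 5 of the 10 receptors, FZD1, FZD4, FZD5, FZD8 and FZD9. The window of FZD5 held 1 match to CANNTG, starting 22 bases before the gene's start, and the windows of the other 4 receptors held 0. Among 27305 windows of the same length, 62.2% held such a match. The E-box letters bound by MYC proteins, CACGTG, were in 0 of these 5 windows and in 6.49% of all windows, and the core letters of TCF and LEF factors, CTTTGA, were in 0 of the 5 and in 11.4% of all. FZD5 had 1 CCAAT match, as did FZD1, FZD4 and FZD8, against 33.0% of all windows with a match. Matches to the GC box letters GGGCGG numbered 6 in FZD5, 6 in FZD4, 3 in FZD8, 2 in FZD9 and 1 in FZD1, and 42.3% of all windows held at least 1. These matches are letters in a window and were read without any binding data.

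FZD5, a receptor of the canonical pathway and the closest relative of FZD8, was at 1.44 and 1.41 RPKM in the Ctrl samples and at 10.5 and 10.6 RPKM in the MYCN KD samples. Both MYCN KD values stood far above both Ctrl values, and the 2 samples of a condition lay close together. The mean was 7.42-fold higher in MYCN KD, and on the log2(RPKM + 1) scale the difference was 2.25 with a standard error of 0.039. The values rest on recovered counts of 322 and 296 in Ctrl against 2001 and 2160 in MYCN KD. Among the 11411 genes whose mean reached 1 RPKM, which were the genes tested, FZD5 had rank 2 when ordered from the largest log2 difference down. On the log2(RPKM + 1) scale the rise of a gene as low as FZD5 in Ctrl is understated, and with a pseudocount of 0.1 the difference was 2.81.

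FZD6 was the other receptor above 1 RPKM whose conditions did not overlap. The Ctrl samples had 2.98 and 3.55 RPKM against 6.12 and 5.15 in MYCN KD. The 2 values within each condition were further apart than those of FZD5, but the lower MYCN KD value exceeded the higher Ctrl value. The mean was 1.72-fold higher and the log2 difference was 0.64 (standard error 0.115), with recovered counts of 400 and 447 in Ctrl against 699 and 627 in MYCN KD. FZD6 had rank 817 in the order of log2 differences that placed FZD5 at rank 2.

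The receptors that led the family in Ctrl beside FZD6 showed overlapping conditions. FZD2 had 3.24 and 3.41 RPKM in Ctrl against 3.26 and 3.11 in MYCN KD, a log2 difference of -0.05 (standard error 0.048). For FZD3, Ctrl gave 2.73 and 3.33 RPKM and MYCN KD gave 2.94 and 2.43 RPKM, with a log2 difference of -0.13 (standard error 0.117). FZD7, which like FZD5 lies on chromosome 2, had 2.54 and 2.27 RPKM in Ctrl against 2.29 and 2.56 in MYCN KD. Its log2 difference of 0.0088 (standard error 0.072) was the closest to 0 among these receptors. The sign turned with quantile normalization (-0.090), without Ctrl replicate 2 (-0.049) and without MYCN KD replicate 2 (-0.048). In each of FZD2, FZD3 and FZD7 the distance between the samples of a condition was larger than the distance between the condition means.

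**Figure D2:**
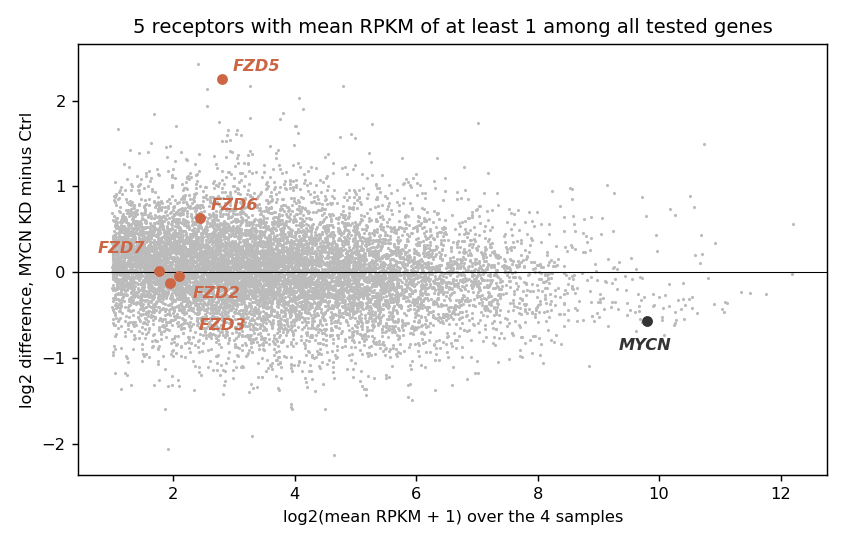
Log2 difference between conditions (MYCN KD minus Ctrl) against the mean level, both on the log2(RPKM + 1) scale, for the 11411 tested genes in grey, with the 5 Frizzled receptors that passed the filter and MYCN marked. FZD5 lies at the upper edge of all genes at 2.25, FZD6 at 0.64, and FZD2, FZD3 and FZD7 lie near 0.

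The other 5 receptors had a mean RPKM under 1 and were not in the fit across genes. FZD9, a receptor known from neural progenitors and bone, had 0.513 and 0.574 RPKM in Ctrl against 0.279 and 0.248 in MYCN KD, from counts of 41 and 43 against 19 and 18. Neither MYCN KD value reached the Ctrl values, and their mean was at 0.485 of the Ctrl mean. The 95% Poisson interval of the count in Ctrl replicate 1 (from 29.4 to 55.6) touched that of MYCN KD replicate 1 (from 11.4 to 29.7). It did not touch that of MYCN KD replicate 2 (from 10.7 to 28.4). The interval of Ctrl replicate 2 (from 31.1 to 57.9) touched neither MYCN KD interval. FZD1, a close relative of FZD2 and FZD7, gave 0.916 and 0.712 RPKM in Ctrl against 0.593 and 0.758 in MYCN KD, so its conditions overlapped. FZD4, the receptor of Norrin in retinal vessels, had counts of 21 and 19 in Ctrl against 15 and 17 in MYCN KD. Its RPKM, 0.0832 and 0.0804 against 0.0698 and 0.0743, did not overlap, but all 4 counting intervals did.

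FZD8 had the same small count in each sample. The number could not be fixed, because equal counts leave the gene's counted length open to multiples, and lay from 1 to 3 for a length within its annotated exons. At 0.0276 and 0.0294 RPKM for Ctrl, then 0.0324 and 0.0304 RPKM for MYCN KD, the values differed by the samples' totals alone. FZD10 had a count of 0 in all 4 samples, which allows up to 0.0315 RPKM in the sample with the smallest total, taking 3 counts over its annotated exons as the limit.

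Of the 9 receptors above 0, both MYCN KD values were above both Ctrl values in 3 (FZD5, FZD6 and FZD8) and below them in 2 (FZD4 and FZD9). Among all 19908 genes above 0 these shares were 39.3% and 26.3%. Since the family was chosen in this contrast, and FZD8 and FZD4 rest on few counts, nothing is read from the counts.

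**Figure D3:**
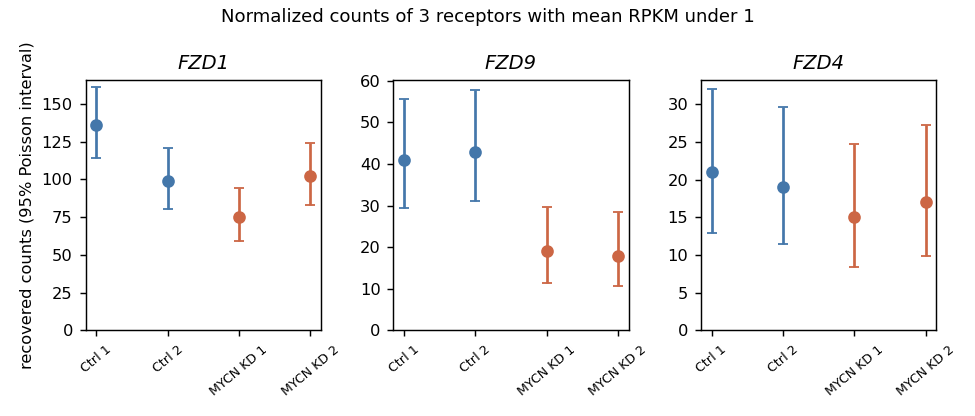
Recovered normalized counts of FZD1, FZD9 and FZD4 in each sample with exact 95% Poisson intervals (Ctrl in blue, MYCN KD in orange), each panel on its own linear axis from 0. FZD9 goes from 41 and 43 to 19 and 18, whereas the intervals of FZD4, at counts of 15 to 21, all overlap.

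The makeup of the family by RPKM shifted toward FZD5. The summed RPKM of the 10 receptors went from 14.5 and 15.4 in the Ctrl samples to 26.1 and 25.0 in the MYCN KD samples. Without FZD5 the sums were 13.0 and 14.0 against 15.6 and 14.4, and these conditions also did not overlap. That rise lay in FZD6, whose mean went from 3.27 to 5.63 RPKM. The means of FZD1, FZD2, FZD3, FZD4 and FZD9 were lower in MYCN KD. FZD7 (2.40 against 2.42 RPKM) and FZD8 (0.0285 against 0.0314 RPKM) stayed close to their Ctrl means. FZD5 made up 9.93% and 9.17% of the summed RPKM in Ctrl, compared with 40.2% and 42.5% in MYCN KD, a difference of 31.8 percentage points between the means. The share of FZD6 was 21.9% ± 1.80 (SD, n = 2) in Ctrl and 22.0% ± 2.01 in MYCN KD. FZD2, FZD3 and FZD7 held 22.3%, 20.3% and 16.1% of the Ctrl sum on average and 12.5%, 10.5% and 9.51% of the MYCN KD sum. These shares are of RNA, and in bulk samples more RNA per cell and more cells with the RNA cannot be told apart.

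**Figure D4:**
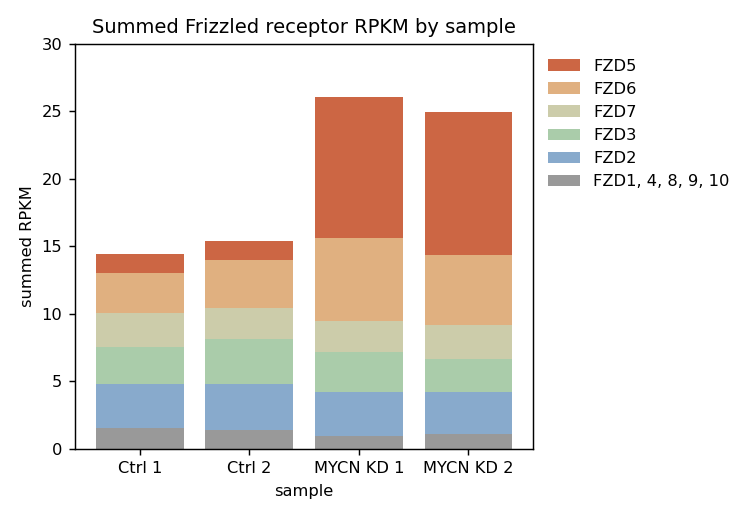
Summed RPKM of the Frizzled receptors in each of the 4 samples, stacked by receptor from 0. The total is 14.5 and 15.4 RPKM in Ctrl against 26.1 and 25.0 in MYCN KD, and the FZD5 segment grows from about 1.4 to between 10.5 and 10.6 RPKM.

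The genes with a pattern nearest to that of FZD5 were TP53INP2, LTK and FNDC5, by Euclidean distance over the 4 samples of log2(RPKM + 1) after subtraction of the Ctrl mean. TP53INP2, an autophagy protein, had the smallest distance at 0.134, with 9.10 and 9.25 RPKM in Ctrl against 45.0 and 44.2 in MYCN KD. LTK, a receptor tyrosine kinase related to ALK, had 2.71 and 2.26 RPKM against 13.4 and 15.9 RPKM (distance 0.230). FNDC5, the precursor of irisin, had 1.32 and 1.03 RPKM against 7.59 and 9.57 RPKM (distance 0.289). With 2 conditions, the distance largely restates the log2 difference. In that order FZD5 had rank 2, and LTK, TP53INP2 and FNDC5 had ranks 3, 4 and 5. The likeness is thus no support for the rise of FZD5. The distances rest on these 4 samples alone, and other measures of likeness were not run.

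The protein-coding neighbours of FZD5 were CCNYL1, a cyclin Y relative whose end lies 759 bases from the end of FZD5 on the opposite strand, and PLEKHM3, which lies 51382 bases beyond its start. CCNYL1 had 3.74 and 4.39 RPKM in Ctrl against 8.26 and 7.08 in MYCN KD, a log2 difference of 0.77 (standard error 0.109, adjusted p = 0.0137 from limma). PLEKHM3 had 3.61 and 4.05 RPKM against 5.17 and 4.62 RPKM, and its log2 difference of 0.29 missed the threshold (adjusted p = 0.0584 from limma). No annotated gene overlapped FZD5.

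The genes around the receptors were taken from 9 lists of Wnt pathway roles with 114 genes, of which 10 were at 0 in all samples and 62 were tested. At an adjusted p under 0.05 from limma, 16 of the 62 (25.8%) were higher and 11 (17.7%) lower in MYCN KD, against 25.3% and 22.8% of all tested genes. The median log2 difference was 0.07 over the 62 genes and 0.03 over all tested genes. The share of higher genes was thus near that of all genes. The count of lower genes fell to 7 without Ctrl replicate 1 and to 7 without MYCN KD replicate 1. Without a filter on low values, 15 of the 104 pathway genes above 0 were higher and 20 lower, against 17% and 13% of all 19908 genes above 0. Of the 42 pathway genes that this adds, 2 were higher and 9 lower, against 11.6% and 4.41% of all genes under the filter. Counts within the single lists are small and are given as descriptions.

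Wnt ligands were scarce. Of 19 WNT genes 6 were at 0 in all samples and 3 were tested. WNT11, a ligand of the planar polarity branch, had 1.49 and 1.41 RPKM in Ctrl against 1.96 and 2.06 in MYCN KD (log2 difference 0.30, adjusted p = 0.0146 from limma), a call lost without Ctrl replicate 2 (adjusted p = 0.0973) and without MYCN KD replicate 2 (adjusted p = 0.0820). WNT3, a canonical ligand, went from 2.14 and 2.20 RPKM to 2.62 and 2.55 RPKM (log2 difference 0.18, adjusted p = 0.0348), and lost the call without any 1 of the samples (adjusted p from 0.279 to 0.368) and without a filter (adjusted p = 0.0653). With quantile normalization neither WNT11 (adjusted p = 0.0795) nor WNT3 (adjusted p = 0.169) passed. The third tested ligand, WNT6, had 1.91 and 1.40 RPKM against 2.29 and 3.06 RPKM. Its log2 difference of 0.47 did not pass with all samples (adjusted p = 0.0896 from limma), and lay from 0.32 to 0.69 over all fits run. Among the 3 tested genes for other ligands and ligand release, NOTUM, an extracellular enzyme that inactivates Wnt proteins, fell from 1.74 and 1.78 RPKM to 0.869 and 0.860 RPKM (log2 difference -0.57, standard error 0.035, adjusted p = 0.00422 from limma). PORCN and WLS, which acylate and carry Wnt proteins, did not pass the test, with log2 differences of 0.0092 and 0.10.

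Of 7 tested co-receptors and other Wnt receptors, 1 was called. LRP5, the partner of Frizzled receptors in the canonical pathway, fell from 20.2 and 18.0 RPKM in Ctrl to 12.7 and 14.2 RPKM in MYCN KD (log2 difference -0.47, standard error 0.091, adjusted p = 0.0261 from limma). LRP6, which shares this role, had 4.62 and 5.42 RPKM against 5.55 and 4.76 RPKM, and its values overlapped (log2 difference 0.03, adjusted p = 0.829). In the receptor turnover list, 1 of 3 tested genes was called. ZNRF3, a ubiquitin ligase that clears Frizzled receptors from the cell surface, fell from 5.85 and 6.48 RPKM to 3.18 and 2.89 RPKM, a log2 difference of -0.83 (standard error 0.073, adjusted p = 0.00626 from limma). Its homologue RNF43 was at 0 in both Ctrl samples and in MYCN KD replicate 2, and at 0.006 RPKM in MYCN KD replicate 1. LGR4 and LGR5, receptors for the R-spondins that hold these ligases in check, overlapped between conditions, with log2 differences of 0.02 and -0.02.

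Of 6 tested secreted and membrane inhibitors 2 were higher and 2 lower. DKK3, a secreted relative of the Dickkopf inhibitors, rose from 12.1 and 12.8 RPKM to 40.3 and 38.1 RPKM (log2 difference 1.58, standard error 0.053, adjusted p = 0.00359 from limma). KREMEN1, a membrane receptor for Dickkopf proteins, rose from 2.78 and 2.86 RPKM to 4.22 and 4.11 RPKM (log2 difference 0.44, adjusted p = 0.00677). SFRP1, a soluble protein with a Frizzled-like domain that binds Wnt, fell from 20.6 and 19.8 RPKM to 15.2 and 15.8 RPKM (log2 difference -0.36, adjusted p = 0.0106). The other lower gene was SOSTDC1, with a log2 difference of -0.27, which lost the call in each fit with a sample left out.

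Of 19 tested cytoplasmic transducers 5 were higher and 3 lower. APC2, a brain form of the APC scaffold, rose from 4.32 and 3.81 RPKM to 6.64 and 7.48 RPKM (log2 difference 0.67, adjusted p = 0.0120 from limma). DVL1, one of the Dishevelled proteins that Frizzled receptors recruit, fell from 30.2 and 27.9 RPKM to 18.3 and 19.7 RPKM (log2 difference -0.59, adjusted p = 0.00897). DVL2 and DVL3 did not pass the test, with log2 differences of -0.04 and 0.22. TNKS2, a tankyrase that marks AXIN proteins for degradation, rose with a log2 difference of 0.51 (adjusted p = 0.0319), a call lost without a filter (adjusted p = 0.0520). CTNNB1, which encodes beta-catenin, had 39.4 and 46.3 RPKM in Ctrl against 53.2 and 45.6 in MYCN KD, which overlapped (log2 difference 0.20, adjusted p = 0.254).

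Among 11 tested nuclear factors 4 were higher and 1 lower. TCF7L2, a factor through which beta-catenin acts on DNA, rose from 14.0 and 13.1 RPKM to 18.9 and 20.1 RPKM (log2 difference 0.49, adjusted p = 0.00978 from limma). CTNNBIP1, which blocks beta-catenin from TCF factors, had a log2 difference of 0.32 (adjusted p = 0.0121), and lost the call without Ctrl replicate 2 (adjusted p = 0.0807) and without MYCN KD replicate 2 (adjusted p = 0.0809). The corepressor TLE1 had a log2 difference of -0.35 (adjusted p = 0.0234), lost without Ctrl replicate 1 (adjusted p = 0.0716) and without MYCN KD replicate 1 (adjusted p = 0.0776). Of 8 tested planar cell polarity genes 3 were higher and 2 lower. CELSR2, an atypical cadherin, rose from 26.7 and 25.1 RPKM to 35.2 and 37.3 RPKM (log2 difference 0.47, adjusted p = 0.00971), and VANGL2, a membrane scaffold, from 8.02 and 7.92 RPKM to 11.0 and 11.1 RPKM (log2 difference 0.42, adjusted p = 0.00653). SCRIB, a polarity scaffold, fell by 0.41 on the log2 scale (adjusted p = 0.0177).

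Of the common beta-catenin target genes 7 of 13 were tested. The called ones were ZNRF3 and NOTUM, both lower and both already described with their other lists, and the other 5 did not pass in limma. One of these was DKK1, a secreted inhibitor that is also a target, with 11.0 and 14.3 RPKM in Ctrl against 21.3 and 16.5 RPKM in MYCN KD (log2 difference 0.55, adjusted p = 0.0931). The DKK1 log2 difference lay from 0.37 to 0.72 over all fits run. AXIN2, the target most often read as a sign of beta-catenin activity, was at 0.076 and 0.081 RPKM in Ctrl against 0.098 and 0.092 in MYCN KD, under the filter. It was not called in the limma fit without a filter (adjusted p = 0.205). LEF1 (0.0568 and 0.0530 against 0.0250 and 0.0235 RPKM) and NKD1 (0.0739 and 0.0718 against 0.0276 and 0.0297 RPKM) were called lower there. Values this low rest on few counts. SP5 was at 0 in all samples. CCND1, which many other signals also drive, had 298.9 and 310.4 RPKM in Ctrl against 345.1 and 332.8 in MYCN KD, and missed the threshold (log2 difference 0.15, adjusted p = 0.0506 from limma).

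**Figure D5:**
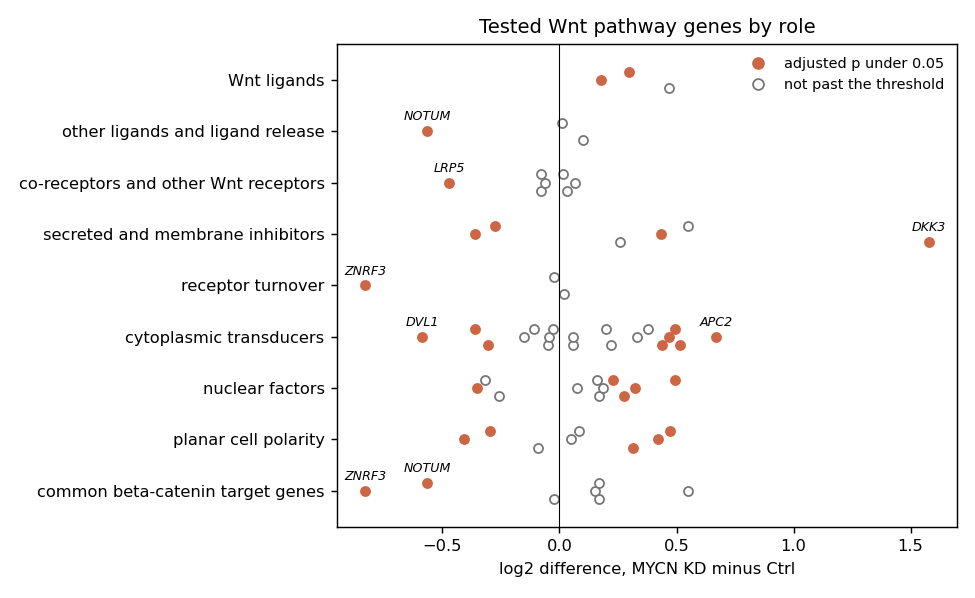
Log2 difference between conditions (MYCN KD minus Ctrl, log2(RPKM + 1) scale) of the tested Wnt pathway genes in 9 role lists; filled points are past an adjusted p of 0.05 in limma and open points are not, and vertical offsets only separate points. DKK3 stands furthest right at 1.58 and ZNRF3 furthest left at -0.83, and ZNRF3, NOTUM and a few others stand in 2 lists.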

How the data were processed

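The deposited values are RPKM, 1 table per sample. The authors aligned the reads with HISAT2 2.1.0 (build hg19), assigned them to RefSeq genes by featureCounts, and applied DESeq2 and RUVSeq before dividing by length. RUVSeq can itself shape the replicate spread, and its settings are not given in the sources used here. Handling of reads shared between paralogs and strand settings were likewise not given.

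Totals and whole counts per gene, both after the normalization by RUVSeq and not sequenced reads, were recovered from the RPKM steps, with lengths of 2240 small RNA genes; 19881 of 19908 genes above 0 came out whole in all samples within 0.001 plus 2e-08 of the count. Genes whose mean reached 1 RPKM were tested as log2(RPKM + 1) in limma 3.58.1 (R 4.3.3; trended eBayes, Benjamini-Hochberg adjustment over all tested genes, threshold 0.05), without a block. The fits and the recovery were tested on simulated data. Members, lists and the naming rule were chosen with earlier results of these data known. Named were all 10 receptors, MYCN, 6 fixed pathway genes, up to 3 called genes per list with the largest differences and conditions that do not overlap, the 3 genes nearest to FZD5, and its neighbours. Other named genes (WNT6, PORCN, WLS, LGR4, LGR5, SOSTDC1, DKK1, DVL2, DVL3, SP5, CCND1 and those under the filter) were chosen after their values were seen. Standard errors are those moderated by limma. Gene positions came from GENCODE release 44 lifted to GRCh37. Other computations used Python 3.11.15 with scipy 1.17.1 and pandas 2.3.3.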

Additional observations from a re-analysis of the deposited data

How the results depend on the processing

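The FZD5 log2 difference of 2.25 kept its direction throughout; it was 2.81 with a pseudocount of 0.1, 2.30 with each sample at the same total RPKM, 2.18 with quantile normalization and 2.89 with limma voom on recovered counts, and lay from 2.25 to 2.26 with a sample left out. The FZD5 share of the summed RPKM differed by 31.8 percentage points, by 34.8 in counts not divided by length, and by 30.7 to 33.0 with a sample left out. Of all tested genes 2890 were higher and 2599 lower. A filter at 5 RPKM left 1868 higher and 2106 lower genes, of fewer genes tested. The same total RPKM in each sample gave 3279 higher and 2122 lower genes. With quantile normalization 2900 were higher and 2990 lower, and with the replicate block 2077 and 1851. The higher Wnt pathway genes numbered 21 with the same total RPKM, 13 with the replicate block and 12 with the filter at 5 RPKM. Leaving out a sample gave 2460 to 2781 higher and 2153 to 2429 lower genes. Wnt pathway genes lower in MYCN KD numbered 11 and were 20 without a filter, where 9 genes of low RPKM entered, 5 with the replicate block, and 7 to 10 with a sample left out; those higher numbered 16, and 14 to 15 with a sample left out. Of the 27 called pathway genes, 16 were called in each of the 4 fits with a sample left out, 15 with the replicate block, 24 without a filter and 24 with quantile normalization. Same-numbered samples did not deviate together: over the tested genes the deviations of replicate 1 in the 2 conditions had a correlation of -0.985, so the number is not taken as a pairing. When the pairing was crossed, which was added once the data had been seen, 5910 genes were higher and 5262 lower, and 39 and 23 of the pathway genes. The deviations being mirror images, the 4 samples hold less independent information on replicate error than their number, which limits every adjusted p given here. Each fit with a sample left out holds 1 sample in a condition and takes its spread from the other condition. A call kept or gained there is no added support. The causes of the changes between settings were otherwise not tested.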

Other observations

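Some Wnt pathway genes under the filter were called in the limma fit without it, and those given here were picked out after their values were seen. Of these, TSPAN12, WNT10B and DACT1 rest on few counts, and no counting intervals were computed for them. Genes lower in MYCN KD come first. NDP, which encodes Norrin, the ligand of FZD4 outside the Wnt family, had 1.30 and 1.19 RPKM in Ctrl against 0.653 and 0.710 RPKM in MYCN KD. TSPAN12, a membrane partner of FZD4 in Norrin signalling, had 0.148 and 0.134 RPKM against 0.0537 and 0.0630 RPKM. SMO, the Hedgehog transducer and the member of the Frizzled class of receptors outside the FZD genes, had 0.400 and 0.393 RPKM against 0.249 and 0.259 RPKM. The ligand genes WNT10A and WNT10B had 0.691 and 0.698 RPKM and 0.0989 and 0.119 RPKM in Ctrl, against 0.464 and 0.463 RPKM and 0.0291 and 0.0273 RPKM in MYCN KD. Others went the other way: CELSR1, a planar polarity cadherin, had 0.0952 and 0.0961 RPKM in Ctrl against 0.160 and 0.156 RPKM in MYCN KD, and DACT1, a partner of Dishevelled, had 0.0399 and 0.0355 RPKM against 0.0703 and 0.0734 RPKM.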
